A study of Mus musculus with 86 samples.

Results

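The features described here are 133 of the 20175 probe identifiers counted in sections of mouse back skin, those that were both abundant in resting surface epidermis and higher there than in deep dermis. They were chosen by their counts before a response to ultraviolet B (UVB) could develop: a mean level of 100 CPM (counts scaled to the same total in every sum) or more in PanCK epidermis at 0 h, at least 3 times the mean of PanCK deep dermis, and a ratio above 1.5 in each of 3 mice. These 133 are called the surface epidermis set below, and 1194 identifiers that also reached 100 CPM there but failed the other conditions serve as abundant identifiers outside the set. The deposited values are keyed by identifier without a table of genes. Genes and sequences are therefore left out, and it could not be checked from marker genes that the labelled layers hold keratinocytes, leukocytes or fat cells.

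The study was a time course of wild-type C57BL/6 skin after 1 UVB exposure of 500 mJ/cm2 (290 to 320 nm). All animals were female, 12 to 16 weeks old, and had the shaved back exposed under anaesthesia. Biopsies at 0, 6 and 24 h were profiled by GeoMx digital spatial profiling, in which light frees the barcodes of bound probes from outlined segments of a section for sequencing. The labels give the same mouse numbers, 208, 210 and 219, at every time, and every group had 3 mice except adipose at 6 h with 2. Whether an animal was biopsied serially is not stated. Segments were outlined by stain and layer, with both PanCK and CD45 areas in the epidermis and in the deep dermis, and CD45 areas in adipose tissue. No skin without UVB was sampled at 6 or 24 h, so an effect of time alone and an effect of UVB cannot be told apart.

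Surface epidermis is a layered sheet of keratinocytes that divide at its base and mature into a cornified barrier as they move outward. Pan-cytokeratin (PanCK) marks epithelial cells, which in the dermis belong mainly to hair follicles and glands, while CD45 marks leukocytes, such as the Langerhans cells and T cells that live in mouse epidermis. The surface layer absorbs most UVB, and strong doses are known to damage keratinocyte DNA, to kill some of these cells and to disturb barrier maturation.

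The 85 segments were added up per mouse, layer and time, giving 44 sums of 17076 to 433425 counts. In PanCK epidermis the sums held 200430 to 433425 counts at 0 h, 171490 to 289727 at 6 h and 86613 to 111738 at 24 h. The share of counts on 5000 scarce identifiers was taken as a rough measure of background. These had the lowest mean CPM over the deep dermis and adipose sums. No epidermal sum entered that choice, so they may include identifiers that epidermis expresses. Their share rose from 9.38% ± 1.04 in resting PanCK epidermis to 12.0% ± 0.638 after 6 h and 16.5% ± 0.735 after 24 h (SD, n = 3). In CD45 epidermis it was 12.9% ± 0.175, 14.2% ± 1.35 and 16.6% ± 0.606. In PanCK deep dermis, whose sums helped to choose the scarce identifiers, it lay at 10.0 to 10.1% on average at each time. All values below are relative levels within a sum, and in such bulk sums fewer cells of a type and less RNA per cell cannot be told apart.

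The set made up a large part of the resting surface signal. At 0 h its members took 12.2%, 10.7% and 9.91% of all PanCK epidermis counts in mice 208, 210 and 219, against 1.09%, 1.25% and 1.21% in PanCK deep dermis, as the rule requires. The median member stood at 235 CPM in PanCK epidermis and at 5.02 times its level in PanCK deep dermis. The set was uneven: 19 members reached 1000 CPM, 25 had a ratio of 10 or more, and the largest ratio was 78.9. The 10 members with the most counts supplied 61.5% of the set's counts on average, and a single one, RTS0069791, supplied 25.1%.

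Near the limits of the rule, membership was a matter of small differences. The 3 members just inside the level limit had 101.07, 101.16 and 101.17 CPM, and the 3 identifiers just outside had 97.6, 96.0 and 95.8 CPM. At the limit on the ratio of means, the nearest members had 3.003, 3.01 and 3.03, and the nearest identifiers outside had 2.9995, 2.99 and 2.98. At the limit on the ratio in a single mouse, the nearest members had 1.56, 1.62 and 1.66, against 1.43, 1.42 and 1.42 outside. When the rule was applied to 2 mice only, it chose 133, 160 and 152 identifiers, of which 123, 140 and 136 had a ratio above 1.5 in the third mouse (208, 210 and 219, in that order).

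The set lost most of its share of the surface signal between 6 and 24 h. In PanCK epidermis its share was 8.17%, 9.13% and 10.2% in mice 208, 210 and 219 at 6 h, and 3.44%, 2.67% and 4.06% at 24 h. The groups did not overlap. Single segments ran more widely, from 7.86 to 12.2% at 6 h and from 1.12 to 5.57% at 24 h. Without RTS0069791 the share went from 6.36% ± 0.942 to 2.14% ± 0.292 (SD, n = 3). CD45 epidermis shared the drop from 6 to 24 h, though not the lower mean at 6 h, with shares of 4.06% ± 0.448, 4.62% ± 0.0616 and 0.953% ± 0.143 at the 3 times. PanCK deep dermis moved the other way, from 1.53% ± 0.162 at 6 h to 2.07% ± 0.116 at 24 h. Its 0 h share, 1.18% ± 0.0866, comes from sums that chose the set, so a later rise from it may be partly built in. CD45 deep dermis (1.34%, 1.23% and 1.31%) and CD45 adipose (0.795%, 0.804% and 0.762%) stayed within the spread between their mice.

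**Figure D1:**
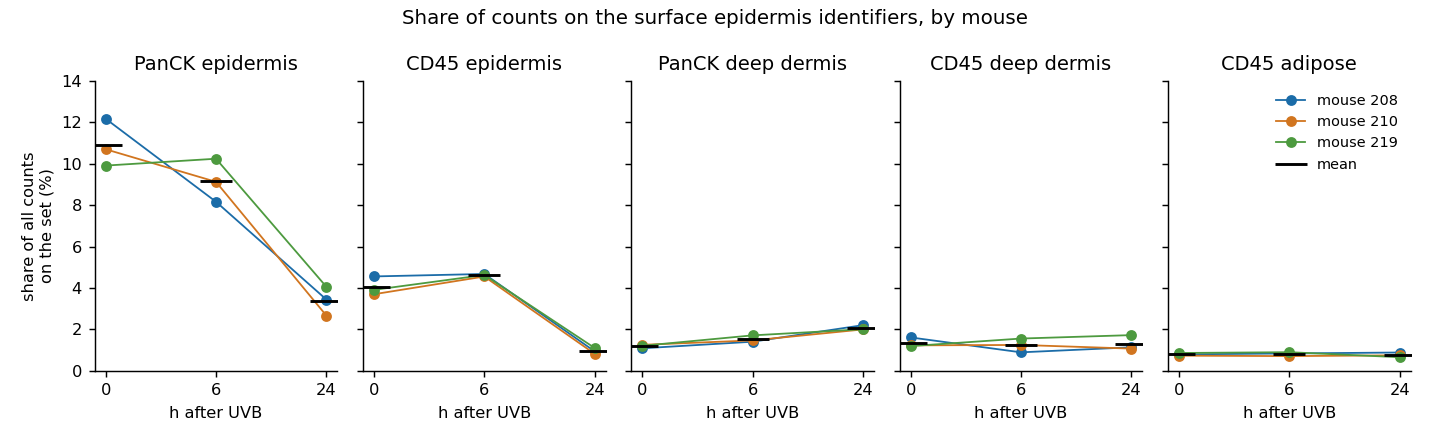
Share of all counts that fell on the 133 members (vertical axis, %) at 0, 6 and 24 h after UVB in 5 stained layers, with a line and points per mouse and a black bar for the mean. In PanCK epidermis the 24 h sums (2.67 to 4.06%) lie below all 6 h sums (8.17 to 10.2%). The PanCK deep dermis sums lie at 1.41 to 1.71% at 6 h and at 2.00 to 2.20% at 24 h. The 0 h sums of both PanCK layers chose the set.

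Of the changes in PanCK epidermis, 24 h against 6 h compares sums other than those that chose the set. The 0 h sums still entered the filter, the spread and the mouse block of the joint fit, so all 133 members were tested, some of them only through the 0 h sums. With the 6 and 24 h sums fitted alone, 111 members were tested and 58 were lower at 24 h, none higher (edgeR's quasi-likelihood test, adjusted p under 0.05, background 9.62%). The median log2 change in that fit was -0.87 in the members tested, -0.22 in the abundant identifiers outside and 0.02 over all tested. Its filter could still be passed through the 6 h sums alone. In the joint fit, 66 of 133 were lower and none higher. Over all 6076 identifiers tested there, 4.20% were lower, and among 1183 abundant identifiers outside the set 15.0% were. The median log2 change was -1.15 in the set, -0.56 in the abundant identifiers outside and 0.03 over all tested. The members' changes ran from -3.71 to 0.83. In CPM, 111 members were lower in all 3 mice and 2 were higher in all 3. For changes over time, such counts are given here and below without a like count outside the set, as a description only. The count of calls depended on the mice fitted: it was 4 without mouse 210, 33 without mouse 219 and 60 without mouse 208. The median stayed between -1.45 and -1.14. These counts, like those without a mouse below, are given without the share over all identifiers. The drop in calls may therefore not be particular to the set. The share on scarce identifiers and the smaller 24 h totals moved with this result, and their part in it was not tested. With libraries scaled to the scarce identifiers 99 members were lower (background 11.8%), and the median was -1.63 in the set, -1.04 in the abundant identifiers outside and -0.45 over all tested.

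RTS0073541 had the smallest p of these 66. Its level in PanCK epidermis was 6616, 5639 and 7336 CPM at 0 h, 5003, 5222 and 7417 at 6 h, and 1085, 519 and 1017 at 24 h (mice 208, 210 and 219). All 24 h values lay far under the lowest 6 h value, and the log2 change from 6 h was -2.76 ± 0.267 (SE, adjusted p = 7.79e-07, edgeR). It fell in CD45 epidermis too, from 3605 CPM ± 468 at 6 h to 652 ± 96.3 at 24 h (log2 -1.94 ± 0.306, adjusted p = 9.62e-05). Its deep dermis levels at 6 and 24 h were 463 CPM ± 72.8 and 653 ± 54.9 under PanCK, and 484 ± 64.0 and 538 ± 45.8 under CD45, changes that did not pass the test (adjusted p = 0.396 and 0.633). At 24 h the 4 stained areas of epidermis and deep dermis therefore held it at means of 538 to 874 CPM, although the resting surface had been at 6530.3.

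RTS0070155 lost more, on fewer counts. In PanCK epidermis it had 2403, 3569 and 5609.7 CPM at 6 h and 508, 125 and 231 CPM at 24 h, the last from 44, 14 and 23 counts. The log2 change was -3.71 ± 0.368 (SE, adjusted p = 7.79e-07, edgeR). In CD45 epidermis it went from 2112 CPM ± 524 to 75.2 ± 15.5 (log2 -4.34 ± 0.379, adjusted p = 2.88e-07), the lowest of the members' changes there. In deep dermis it was scarce throughout, with means of 36.6 to 67.9 CPM under PanCK and 48.2 to 87.7 under CD45.

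The 2 members with the most counts at 0 h did not fall alike. RTS0069791 had 32320.5, 25624 and 24527 CPM at 0 h in PanCK epidermis, 27808, 26891 and 29804 at 6 h, and 12585, 8368 and 16506 at 24 h. Its log2 change from 6 h was -1.18 ± 0.278 (SE, adjusted p = 0.0127, edgeR), close to the median of the set. RTS0069828 had 4138, 5367 and 5586 CPM at 6 h and 1385, 1038 and 1731 at 24 h (log2 -1.85 ± 0.261, adjusted p = 0.00018). For both, the 24 h values lay under all 6 h values. In CD45 epidermis both fell further, RTS0069791 from 10172 CPM ± 2177 to 913 ± 609 and RTS0069828 from 1794 ± 165 to 158 ± 69.6 (log2 -3.11 and -3.10, adjusted p = 1.25e-05 and 1.18e-06).

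**Figure D2:**
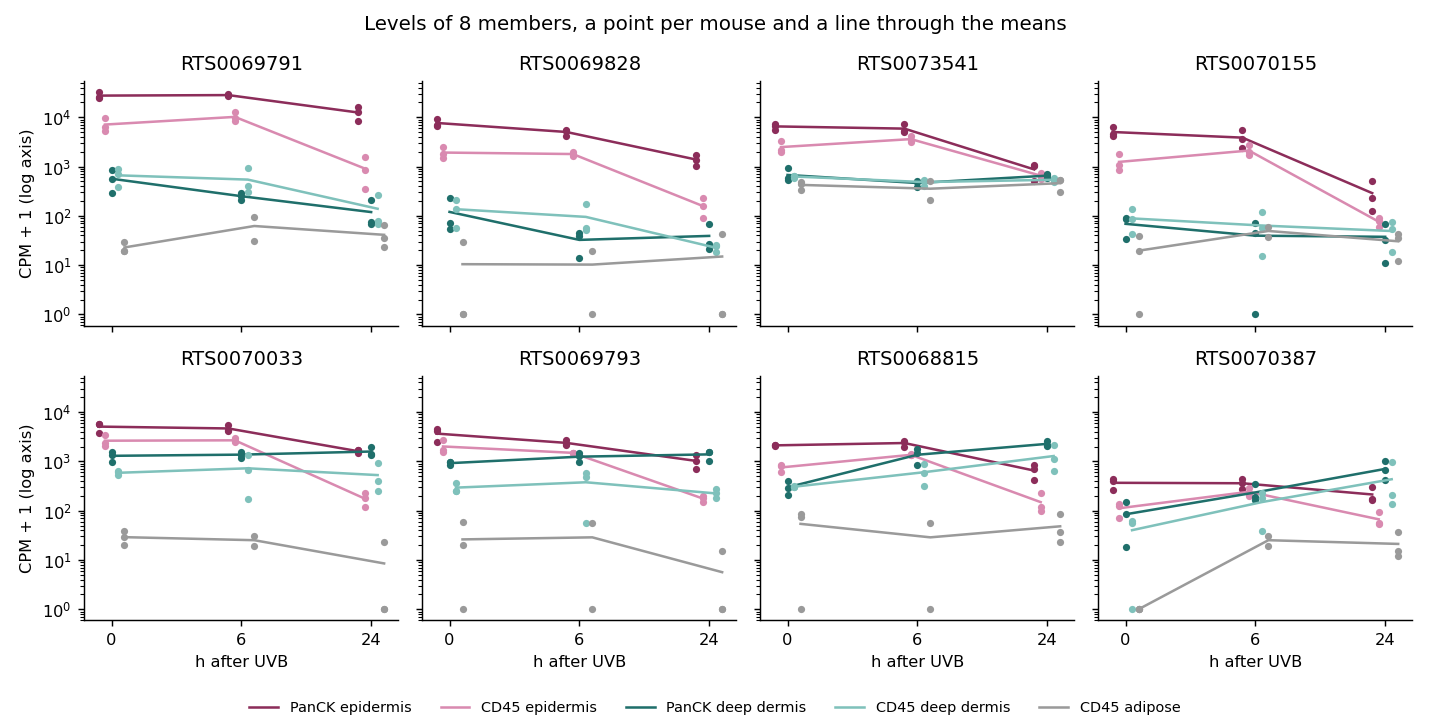
Levels of 8 members (CPM + 1, log axis) at 0, 6 and 24 h after UVB, with a point per mouse and a line through the mean of each stained layer. The first 6 panels drop in both epidermal areas at 24 h, and in the last 2, RTS0068815 and RTS0070387, the deep dermis lines rise above the epidermal ones.

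Comparisons of PanCK epidermis with 0 h reuse the sums that chose the set and are given as a description only. At 24 h against 0 h, 105 of 133 members were lower (background 10.1%), with a median log2 change of -1.54 against -0.79 in the abundant identifiers outside. At 6 h against 0 h, 9 were lower (background 0.494%) with a median of -0.33, and 66 were lower in all 3 mice. The 2 with the smallest p, named after their values were seen, had their larger step first. RTS0069956 had 419, 694 and 529 CPM at 0 h, 114, 142 and 192 at 6 h, and 92.4, 62.6 and 70.5 at 24 h. RTS0069958 had 304, 443 and 449.6 CPM, then 84.0, 62.1 and 128, then 69.3, 35.8 and 50.3. For neither did the later step from 6 to 24 h pass the test (adjusted p = 0.134 and 0.335, edgeR).

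CD45 epidermis offers sums that the rule did not use, from the same biopsies. Its 0 h sums already favoured the set over CD45 deep dermis: 32 of the 113 members tested were higher in CD45 epidermis and none lower, against a background of 3.22% higher over 1709 identifiers. The filter of that fit also took in PanCK epidermis at 0 h, which the rule used, and some members were tested only through it. In fits of 1 layer alone, 59 members were tested in CD45 epidermis and 17 in CD45 deep dermis. The median log2 difference was 1.21 in the set and 0.14 in the abundant identifiers outside. In CPM, 90 of the 133 members were higher in all 3 mice and 2 lower. Of the 1194 abundant identifiers outside, 323 were higher in all 3 and 86 lower. The number of calls was 22, 16 and 16 without mouse 208, 210 and 219.

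At 24 h the members had fallen in CD45 epidermis as well. Of 59 members tested, 41 were lower than at 0 h and 1 was higher, against backgrounds of 26.9% lower and 25.1% higher over 907 identifiers. The filter of this fit took in all 3 times, so some members were tested only through the 0 and 6 h sums. That favours calls of lower against both times. At 24 h, 16 of the 133 members had a mean of 100 CPM or more in CD45 epidermis. The abundant identifiers outside were lower in 29.9% and higher in 13.0% of 625. The median log2 change was -1.65 in the set and -0.42 outside it. Against 6 h, which shares the 24 h sums with the former, 41 of 59 were lower and none higher (background 19.6%), and the median was -1.60. The other 74 members were too scarce in these sums to be tested, and 85 of all 133 were lower in all 3 mice at 24 h than at 0 h. From 0 to 6 h no member was called (background 1.43% lower) by edgeR, although 14 had an unadjusted p under 0.05, and the median change was 0.11.

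RTS0070033 and RTS0069793 had the smallest p in CD45 epidermis at 24 h against 0 h. RTS0070033 had 3459.7, 2382 and 2035 CPM at 0 h, 2595, 2951 and 2481 at 6 h, and 180.2, 116 and 229 at 24 h in mice 208, 210 and 219 (24 h against 0 h, log2 -3.40 ± 0.329 SE, adjusted p = 4.79e-07, edgeR). RTS0069793 had 2746, 1721 and 1553 CPM, then 1477, 1480.3 and 1509, then 180.2, 149 and 198 (log2 -2.91 ± 0.295, adjusted p = 6.06e-07). Neither group of 24 h values came near the earlier ones. In PanCK epidermis these members kept more of their level, at 1607 CPM ± 122 and 1021 ± 319 at 24 h. In PanCK deep dermis they held 1584 CPM ± 324 and 1387 ± 330 at 24 h, and the changes from 6 h there did not pass the test (adjusted p = 0.823 and 0.935).

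The single member called higher in CD45 epidermis was RTS0071783. It had 24.9, 82.6 and 94.1 CPM at 0 h and 129, 121 and 30.5 at 24 h, so that mouse 219 moved against the other mice and the groups overlapped (log2 1.18 ± 0.470 SE, adjusted p = 0.0428, edgeR). Over 10 alternatives of the processing the adjusted p ran from 0.0231 to 0.909, and 5 of them ended the call.

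The calls in the 2 stained areas of the epidermis were then set beside each other. Among the 59 members tested in both, 44 were lower at 24 h than at 6 h in PanCK epidermis and 41 in CD45 epidermis. Lower in both were 35, which is 79.5% of the first list and 85.4% of the second. As 69.5% of all 59 were lower in CD45 epidermis, a large overlap follows from the counts alone. The overlap itself was not tested. The log2 changes correlated across these 59 members, which come from the same biopsies and are not independent (Pearson's r = 0.49, Spearman's rho = 0.45). The change was more negative in CD45 epidermis for 38 of the 59, and the medians were -1.60 there and -1.38 in PanCK epidermis. At 24 h, 21 of the 45 members tested were higher in PanCK than in CD45 epidermis and 2 were lower, against backgrounds of 5.03% higher and 5.54% lower. At 6 h 8 of 87 were higher (background 1.01%) and 1 was lower (background 1.61%).

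**Figure D3:**
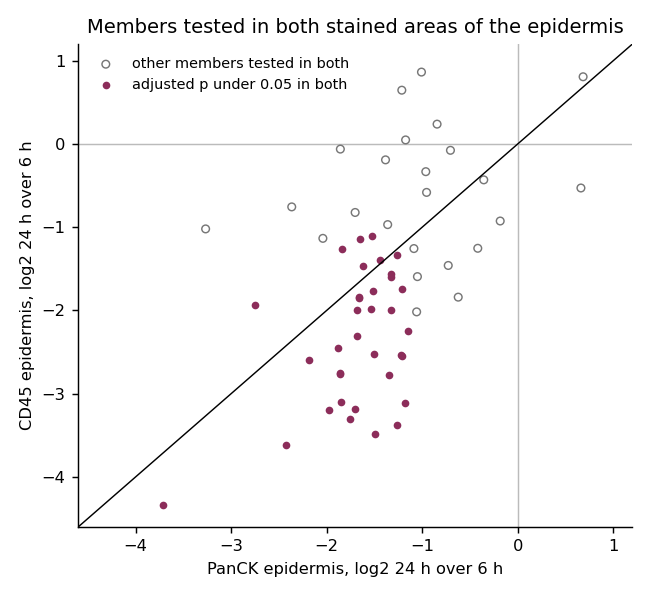
Log2 change from 6 to 24 h in PanCK epidermis (horizontal axis) and CD45 epidermis (vertical axis) for the 59 members tested in both, with filled points for the 35 called lower in both and a line of equal change. Of the 59 points, 38 lie below the line.

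Whether the set still marked the surface was asked by comparing the 2 PanCK layers at the later times. At 6 h it did: 73 of the 87 members tested were higher in PanCK epidermis than in PanCK deep dermis and 1 was lower, against backgrounds of 7.69% higher and 6.92% lower over 1677 identifiers. The median log2 difference was 2.20. In CPM, 115 of the 133 members were higher in all 3 mice and 1 lower. Of the 1194 abundant identifiers outside, 257 were higher in all 3 and 328 lower. Limma on mean log values called 8 of these, and edgeR 43 without mouse 210. At 24 h 13 of 45 members tested were higher (background 8.45%) and 2 were lower (background 3.94%), with a median log2 difference of 0.47. Without mouse 219, 8 were higher. The direction at 24 h depended on the processing. The scarce identifiers were chosen by deep dermis and adipose sums, so scaling to them does not treat the 2 layers alike. It put the median of all identifiers at -1.47 and that of the members at -0.93, with 8 members higher and 19 lower. Limma on mean log values put these medians at -0.79 and -0.48, with 4 members higher and 4 lower.

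In CPM, the median ratio of PanCK epidermis to PanCK deep dermis over all 133 members was 3.57 at 6 h and 1.49 at 24 h, from the 5.02 that the rule selected at 0 h. Within single mice the median was 3.01 to 4.15 at 6 h and 1.32 to 1.49 at 24 h. At 24 h 23 members still had a ratio of 3 or more, and 45 had a lower mean in the epidermis than in the deep dermis. The abundant identifiers outside the set also shifted towards the deep dermis, with median ratios of 1.18, 0.949 and 0.601 at 0, 6 and 24 h. These CPM ratios lack the TMM scaling of the edgeR fits, so the size of the shift depends on scaling. With it, the median log2 differences of the 1022, 872 and 861 outside identifiers tested were 0.15, 0.07 and -0.22. Between CD45 epidermis and CD45 deep dermis the members' median ratio was 2.27, 2.62 and 0.941 at the same times. At 24 h 3 of 45 members were higher in CD45 epidermis (background 7.82%) and 8 were lower (background 3.31%), whereas at 6 h 39 of 87 had been higher (background 3.94%) and none lower. These calls came from the same fits and filter as those of the PanCK layers.

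**Figure D4:**
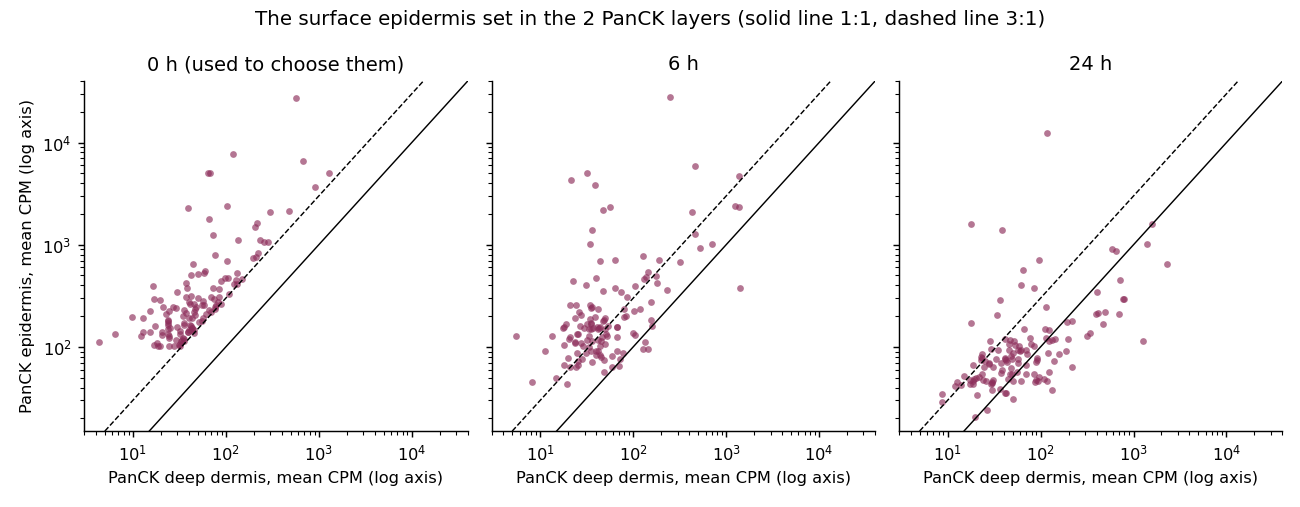
Mean CPM of the 133 members in PanCK deep dermis (horizontal log axis) and PanCK epidermis (vertical log axis) at 0, 6 and 24 h, with a solid line of equal level and a dashed line of a ratio of 3. At 0 h all points lie above the dashed line by the rule, and at 24 h 23 do while 45 lie below the solid line.

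The test of the shift itself asked whether the layer difference changed from 6 to 24 h. Of the 133 members, 29 had a layer difference that fell and none one that rose, against a background of 2.62% fallen over 4268 identifiers and 6.60% among 1181 abundant ones outside. The median change of the layer difference was -1.12 on the log2 scale in the set and -0.39 outside. Of these 29 members, 24 were also among the 66 that fell in PanCK epidermis. Both tests use the same PanCK epidermis sums, so much of this overlap is built in. Without mouse 210 the count was 10. This fit too held the 0 h sums, and with the 6 and 24 h sums alone 23 of 97 members tested had a layer difference that fell (background 3.48%), with a median of -1.28. A like test of the CD45 layers, added after the PanCK result was seen, gave 21 of 57 members with a layer difference that fell from 6 to 24 h (background 3.89%). From 0 to 24 h it gave 13 of 57 (background 3.50%).

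Part of the change lay in the deep dermis, where some members rose. In PanCK deep dermis 38 members were tested from 6 to 24 h: 7 were higher (background 3.21%) and 1 was lower (background 6.95%), with a median of 0.36 on the log2 scale against 0.01 in the abundant identifiers outside. The filter took in all 3 times here too, so a member could be tested through its 24 h sums alone. All 7 had a PanCK layer difference that fell. That test uses the same deep dermis sums, so a rise there lowers the difference by itself. Of the 7, 4 were also called lower in PanCK epidermis. The number higher was 5, 1 and 3 without mouse 208, 210 and 219, and limma on mean log values called none. Against 0 h, whose sums the rule used, 13 of 38 were higher (background 7.96%). Over all 133 members, 34 were higher at 24 h than at 6 h in all 3 mice and 11 were lower, given without a like count outside the set.

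**Figure D5:**
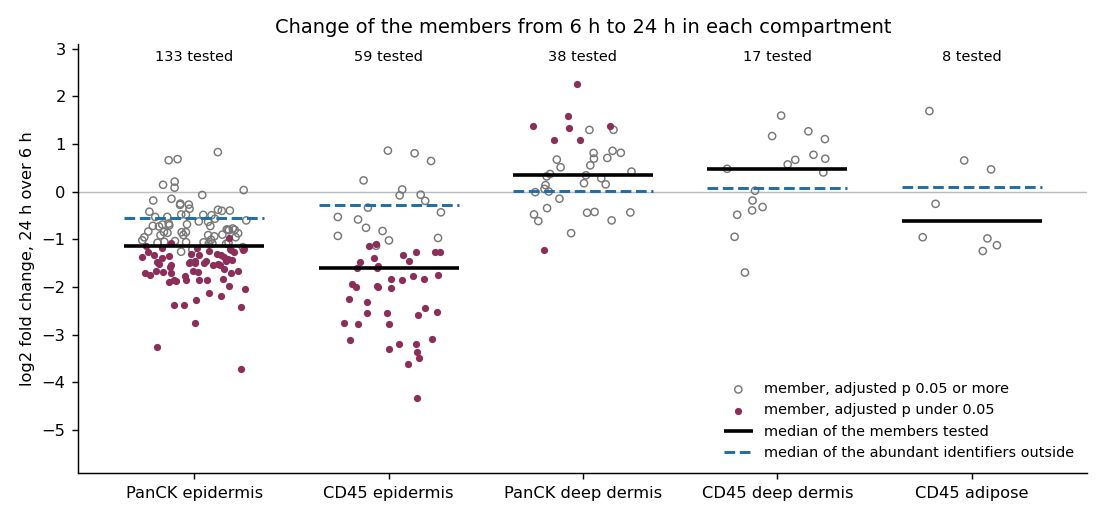
Log2 fold change from 6 to 24 h (vertical axis) of the members tested in each of 5 stained layers, with filled points for adjusted p under 0.05, a black bar for the members' median and a dashed bar for the median of the abundant identifiers outside. The members' median is -1.15 in PanCK epidermis and -1.60 in CD45 epidermis, and it is 0.36 in PanCK deep dermis.

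RTS0070387 and RTS0069395 had the smallest p among the 7 and, like the members in the rest of this account, were chosen after their values were seen. RTS0070387 had 17.6, 149.6 and 83.4 CPM at 0 h in PanCK deep dermis, 189.7, 163 and 348 at 6 h, and 425, 668 and 1016 at 24 h (24 h against 6 h, log2 1.59 ± 0.363 SE, adjusted p = 0.00912, edgeR). All 24 h values lay above all 6 h values, and in PanCK epidermis it went from 359 CPM ± 83.5 to 212 ± 78.1 (adjusted p = 0.184). RTS0069395 had 73.0, 193 and 258 CPM at 6 h and 357, 478 and 579 at 24 h (log2 1.38 ± 0.318, adjusted p = 0.00936). In PanCK epidermis it fell from 499 CPM ± 78.0 to 169 ± 13.7 (log2 -1.54 ± 0.287, adjusted p = 0.0018), and at 24 h the difference between its layers did not pass the test (log2 -0.77 ± 0.383, adjusted p = 0.169).

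RTS0068815 was higher in PanCK epidermis at 6 h and lower there at 24 h than in PanCK deep dermis. In PanCK epidermis it had 1963, 2478 and 2629.9 CPM at 6 h and 693, 412 and 845 at 24 h (log2 -1.86 ± 0.255 SE, adjusted p = 0.000141, edgeR). In PanCK deep dermis it had 211, 397 and 284 CPM at 0 h, 1503, 831 and 1752 at 6 h, and 2058, 2550.0 and 2194 at 24 h. At 24 h the epidermis was lower in all 3 mice, by -1.17 ± 0.332 on the log2 scale (adjusted p = 0.0173), which did not pass the test without the replicate block or without mouse 210 or 219. The CD45 areas did likewise, with 148 CPM ± 70.6 in the epidermis and 1284 ± 748 in the deep dermis at 24 h (log2 -2.49 ± 0.384, adjusted p = 6.03e-05). The change of its PanCK layer difference from 6 to 24 h was -2.46 ± 0.326 (adjusted p = 8.51e-06).

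RTS0081318 was the other member lower in PanCK epidermis than in PanCK deep dermis at 24 h, and the 1 that was lower at 6 h. It had 361, 483 and 279.9 CPM in PanCK epidermis at 6 h against 1693, 1574 and 966 in PanCK deep dermis (log2 -1.66 ± 0.271 SE, adjusted p = 8.66e-05, edgeR). At 24 h it had 92.4, 152 and 100.6 against 1446, 2035 and 356 (log2 -2.55 ± 0.444, adjusted p = 0.000138). The layers did not overlap at either time. It was also the single member called in CD45 adipose, where 8 were tested at 24 h against 0 h (background 1.31% higher). There it had 55.6, 18.7 and 113 CPM at 0 h and 619.6, 887 and 176 at 24 h (log2 3.48 ± 0.593, adjusted p = 0.0061), a call lost in 4 of 11 alternatives. Its CD45 deep dermis levels were uneven, with 4419 CPM in mouse 208 at 0 h against 97.5 and 142 in the other mice.

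CD45 deep dermis changed little. Of 17 members tested at 24 h against 0 h, 2 were higher (11.8%, background 2.72%) and 2 were lower (11.8%, background 6.73%). The higher ones were RTS0068815 (305 CPM ± 7.76 to 1284 ± 748, log2 1.79 ± 0.436 SE, adjusted p = 0.0277, edgeR) and RTS0070387 (39.2 ± 34.1 to 433 ± 452, adjusted p = 0.0476), both high in mouse 219 at 24 h with 2103 and 953 CPM. These calls were lost in 5 of 11 and 5 of 10 alternatives. The lower ones were RTS0069791 (663 CPM ± 250 to 138 ± 113, log2 -2.51 ± 0.390, adjusted p = 0.00364) and RTS0068347 (1401 ± 538 to 493 ± 75.1, log2 -1.56 ± 0.293, adjusted p = 0.0102), the latter lost in 4 of 11 alternatives. RTS0069791 was thus lower at 24 h than at 0 h in all 4 stained areas of epidermis and deep dermis, 2 of which the rule used. In PanCK deep dermis it was the 1 member called lower, at 248, 205 and 296 CPM at 6 h and 68.0, 73.6 and 213 at 24 h (log2 -1.22 ± 0.359, adjusted p = 0.037), a call lost in 7 of 11 alternatives.

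RTS0068347 had higher levels in the CD45 areas than in the PanCK areas. It passed the rule with 125, 233 and 212 CPM in PanCK epidermis at 0 h, against 52.7, 84.5 and 33.4 in PanCK deep dermis. In the CD45 areas it was far higher, at 1195, 2015 and 2129.6 CPM in CD45 epidermis, 1275, 1992 and 938 in CD45 deep dermis and 2186, 1402 and 2696 in adipose. At 6 h, outside the sums of the rule, it was the 1 member lower in PanCK than in CD45 epidermis, with 59.3, 100.1 and 87.5 CPM against 492, 873 and 806 (log2 -3.16 ± 0.377 SE, adjusted p = 1.18e-05, edgeR). Its levels at 24 h were 72.4 CPM ± 42.6 in PanCK epidermis and 290.3 ± 152 in CD45 epidermis, the latter lower than at 0 h (log2 -2.18 ± 0.378, adjusted p = 0.000125). At 24 h RTS0065659 was also lower in PanCK than in CD45 epidermis, with 47.9 CPM ± 11.2 against 162 ± 48.7 (log2 -2.05 ± 0.502, adjusted p = 0.00376, edgeR).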

How the data were processed

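The authors deposited 1 file of counts per segment, whole numbers per probe identifier made, per the file headers, with GeoMx_NGS_Pipeline 2.3.3.10 and with no normalization on record. For the probe panel, aligner and build, names were not given in the sources used here. Both members and lists were chosen with earlier results of these data known. Counts were summed per mouse, layer and time, with the mouse as replicate, and a no template control was left out. Each layer's times were fitted with edgeR 4.0.16 (R 4.3.3): TMM scaling, filterByExpr with a minimum count of 10, quasi-likelihood test, mouse as a block, Benjamini-Hochberg over all identifiers tested, calls at adjusted p under 0.05. Layers were compared in 1 fit per time, and layer by time with the biopsy as a block. The tests were also run on simulated counts with 4-fold changes at a fixed spread. Of the changed identifiers tested, 75.8% were recovered for 24 h against 6 h in PanCK epidermis. For 24 h against 0 h in CD45 epidermis it was 98.9%. The PanCK layer comparison at 24 h recovered 88.7%, and the layer-by-time test 35.3%. Pairing comes from the mouse numbers in the labels. Deviations from group means, over 1327 identifiers, correlated between times of a mouse at -0.0839 to 0.162. Between different mice they correlated at -0.174 to 0.174, so these pooled ranges do not show the pairing. Single comparisons differed. In PanCK epidermis at 0 and 6 h the values were 0.0672 to 0.137 within a mouse and -0.114 to 0.00317 between mice. At 6 and 24 h there they were -0.0839 to 0.0874 and -0.150 to 0.151. CPM are counts scaled to the total of a sum, and SE derives from the log2 change and F. Alternatives used DESeq2 1.42.0 and limma 3.58.1 on log2(CPM + 1). Identifiers named were the 2 with the highest 0 h level and those with the smallest p, at most 2 per direction. With 3 mice, exact permutation within mice cannot give p below 0.25, so none is given.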

Additional observations from a re-analysis of the deposited data

Results flagged for a closer look

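In 4 groups, 1 segment held a share of counts on the set far from the other 5 segments of its group, where chance alone marks about 1 group in 20. The segment of mouse 208 in CD45 deep dermis at 0 h had 1.86%, against 1.16 to 1.30% in the others. A segment of mouse 219 in PanCK epidermis at 6 h had 12.2%, against 7.86 to 9.43%. A segment of mouse 219 in CD45 epidermis at 24 h had 1.47%, against 0.764 to 1.02%. A segment of mouse 219 in CD45 deep dermis at 24 h had 2.07%, against 0.977 to 1.36%.

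The course from 6 to 24 h differed between PanCK epidermis and PanCK deep dermis for 29 members by the layer-by-time test (edgeR, adjusted p under 0.05), and the course from 0 to 24 h differed between the CD45 layers for 13. Among the members named, the log2 change in PanCK epidermis minus that in PanCK deep dermis was -4.74 for RTS0064616, -3.20 for RTS0070155, -3.06 for RTS0073541, -2.73 for RTS0069395, -2.46 for RTS0068815, -2.24 for RTS0070387, -1.47 for RTS0070033 and -1.13 for RTS0069793. RTS0064616, singled out after its values were seen, had 569, 676 and 839.7 CPM in PanCK epidermis at 6 h and 162, 89.5 and 131 at 24 h, and in PanCK deep dermis 43.8, 37.9 and 51.5, then 663, 73.6 and 203.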

How the results depend on the processing

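The number of members moved with the rule: 79 at a level of 200 CPM, 218 and 67 at ratios of 2 and 5, and 237 with TMM-scaled CPM, while leaving out a mouse gave 133 to 160. Members lower in PanCK epidermis at 24 h against 6 h numbered 39 with a ratio of 5 (of 67) and 4 to 60 without 1 mouse; the median log2 change was -1.63 with scaling to scarce identifiers, -1.46 without a filter, -1.49 by limma on mean log values, -0.87 in a fit of 6 and 24 h alone, which tested 111 members, and -1.45 to -1.14 without 1 mouse. In CD45 epidermis the members lower at 24 h numbered 29 to 41 against 0 h and 27 to 37 against 6 h without 1 mouse. Members higher in PanCK epidermis at 6 h numbered 8 by limma on mean log values and 43 to 75 without 1 mouse; at 24 h they numbered 8 with scaling to scarce identifiers, 4 by limma and 8 to 13 without 1 mouse. Members higher in CD45 epidermis at 0 h numbered 11 by limma and 16 to 22 without 1 mouse. Layer differences that fell numbered 60 with scaling to scarce identifiers and 10 to 30 without 1 mouse. In PanCK deep dermis the 1 lower member became 0 with scaling to scarce identifiers, without a filter, by DESeq2's test, by limma and without the replicate block, and 0 to 1 without 1 mouse; the 7 higher became 3 by DESeq2's test, 0 by limma and 1 to 5 without 1 mouse. In CD45 deep dermis the 2 lower became 1 without a filter, 1 by limma and 1 to 2 without 1 mouse. Without the replicate block the PanCK epidermis count was 65, CD45 epidermis 42, and layer differences 23. The members' median changed sign in the 24 h layer comparison, with scaling to scarce identifiers and by limma. The cause of these differences was not tested, and most counts under these alternatives are given without the share over all identifiers. DESeq2's size factors, upper quartile scaling and omission of 1 shallow segment kept each count within 1.5 times.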
